A study of Mus musculus with 6 samples.

Results

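Genomic imprinting restricts the activity of a gene to the copy inherited from 1 parent. The imprinted genes outside the Dlk1-Dio3 cluster were taken from 41 listed symbols and matched to the gene names of the deposited table. Of these, 35 had a row among the 25166 genes of the table. Magel2, Ascl2, Slc22a18, Snurf and Klf14 were not analysed here, and Nespas had no row under that symbol. The mice were C57BL/6 males of 12 weeks. In Sirt6mKO mice, Cre recombinase expressed from Pax7 (Pax7-ICN Cre) deletes exons 4 to 6 of both floxed copies of Sirt6, which encodes a histone deacetylase, in the skeletal muscle lineage, which includes the muscle stem cells (MuSCs). Controls were Cre-negative mice with floxed Sirt6 according to the supplementary legend and wild type according to the labels. According to the reporting summary, the cross that gave the Sirt6mKO mice also included a YFP reporter strain. MuSCs were sorted by FACS without culture, 100 to 200 cells per sample by the labels. The methods name sorting by surface antigens or by reporter fluorescence and do not say which was used for these samples. RNA of 3 Sirt6mKO and 3 control samples was sequenced, with 1 library each. Each sample was treated as 1 replicate, and the labels do not say that each came from a mouse of its own, so p-values measure the spread between these samples.

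Imprinted genes lie in clusters controlled by regions that carry DNA methylation on the maternal or the paternal copy, set in the germ line and kept in the body by factors such as the zinc finger proteins ZFP57 and ZFP445. Several clusters also express a long RNA from the paternal copy that silences neighbouring genes in cis. Many of the genes regulate growth, and in muscle Peg3, Ndn, H19 and Grb10 are known for roles in stem cells or in muscle mass. C57BL/6 is an inbred strain, so the parental copy that a read came from could not be read here, and the words paternal, maternal and partial below name the copy that is active elsewhere in the mouse, where partial covers genes imprinted only in some tissues, promoters or degrees.

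A gene's value is called signal here and is its reads divided by 1 factor per library and rounded. Between 1267027 and 3207156 reads on genes lay behind a library, both extremes being controls, and 1 read was worth a signal of 0.729 to 1.79. Values were compared as log2(signal + 1) with limma-trend over the 14227 genes whose mean signal reached 5, and a gene was counted as higher or lower where its p, adjusted by Benjamini-Hochberg, was at most 0.05. Pax7, which defines MuSCs, was present in all libraries, at 1810 to 2307 in Sirt6mKO and at 3150 to 4066 in the controls. Sirt6 itself had 19, 20 and 13 in Sirt6mKO against 18, 17 and 20 in control MuSCs, which does not check the deletion because most of its exons remain.

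A few of the imprinted genes were abundant for their length. Gnas, which encodes the G protein alpha subunit that activates adenylyl cyclase, had a signal of 712 per kb of exon in the controls, and Peg3, which encodes a zinc finger protein, had 638 per kb. Over all 6 libraries they ranked 50 and 57 of the genes of the table per length. Grb10 followed with 185 per kb, Zim1 with 176, Cd81 with 155, Airn with 118 and H19 with 112. At the other end, Phlda2 had 0.59 and Asb4 0.93 per kb. The 35 genes together held 1.01 to 1.12% of the signal of a Sirt6mKO library and 1.06 to 1.18% of that of a control library, ranges that overlap.

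Of the 35 genes, 33 had enough signal to be tested, and 8 of them differed between the groups. Slc38a4, Ndn, Ppp1r9a, Peg10, Zrsr1 and Peg13 were higher in Sirt6mKO, and Mest and Zdbf2 were lower. These were 18.2% higher and 6.06% lower, against 2.64% higher and 1.88% lower among all tested genes. The list was chosen with earlier results of these data known, so these shares describe the list only. With a fold change of at least 2 in addition, only Slc38a4 and Ndn were counted, or 2 of 33, where 1.57% of all genes were higher and 1.02% were lower. Every Sirt6mKO library was above every control library in 8 of the genes and below in 6, against 11.1% and 10.1% of all tested genes. With 3 against 3 libraries no two-sided exact permutation test can give a p under 0.1, which is what a gene without overlap gets.

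The genes did not move in 1 direction. Over the 33, 16 log2 fold changes were above 0 and 17 below, and the median was -0.03, as against 0.00 for all tested genes. Of the 18 tested genes with paternal expression, 5 were higher and 2 lower, with a median of -0.13. None of the 5 tested maternally expressed genes passed the test, although 4 of their log2 fold changes were above 0, with a median of 0.38 and an unadjusted p under 0.05 in limma-trend for 3. Here and below, such unadjusted p were not counted over all tested genes, so these counts have no share to stand beside. Among the 10 partially imprinted genes, Ppp1r9a alone passed. In 19 of the 25 genes that did not pass, the 95% interval of the difference lay within a 2-fold change in both directions.

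**Figure D1:**
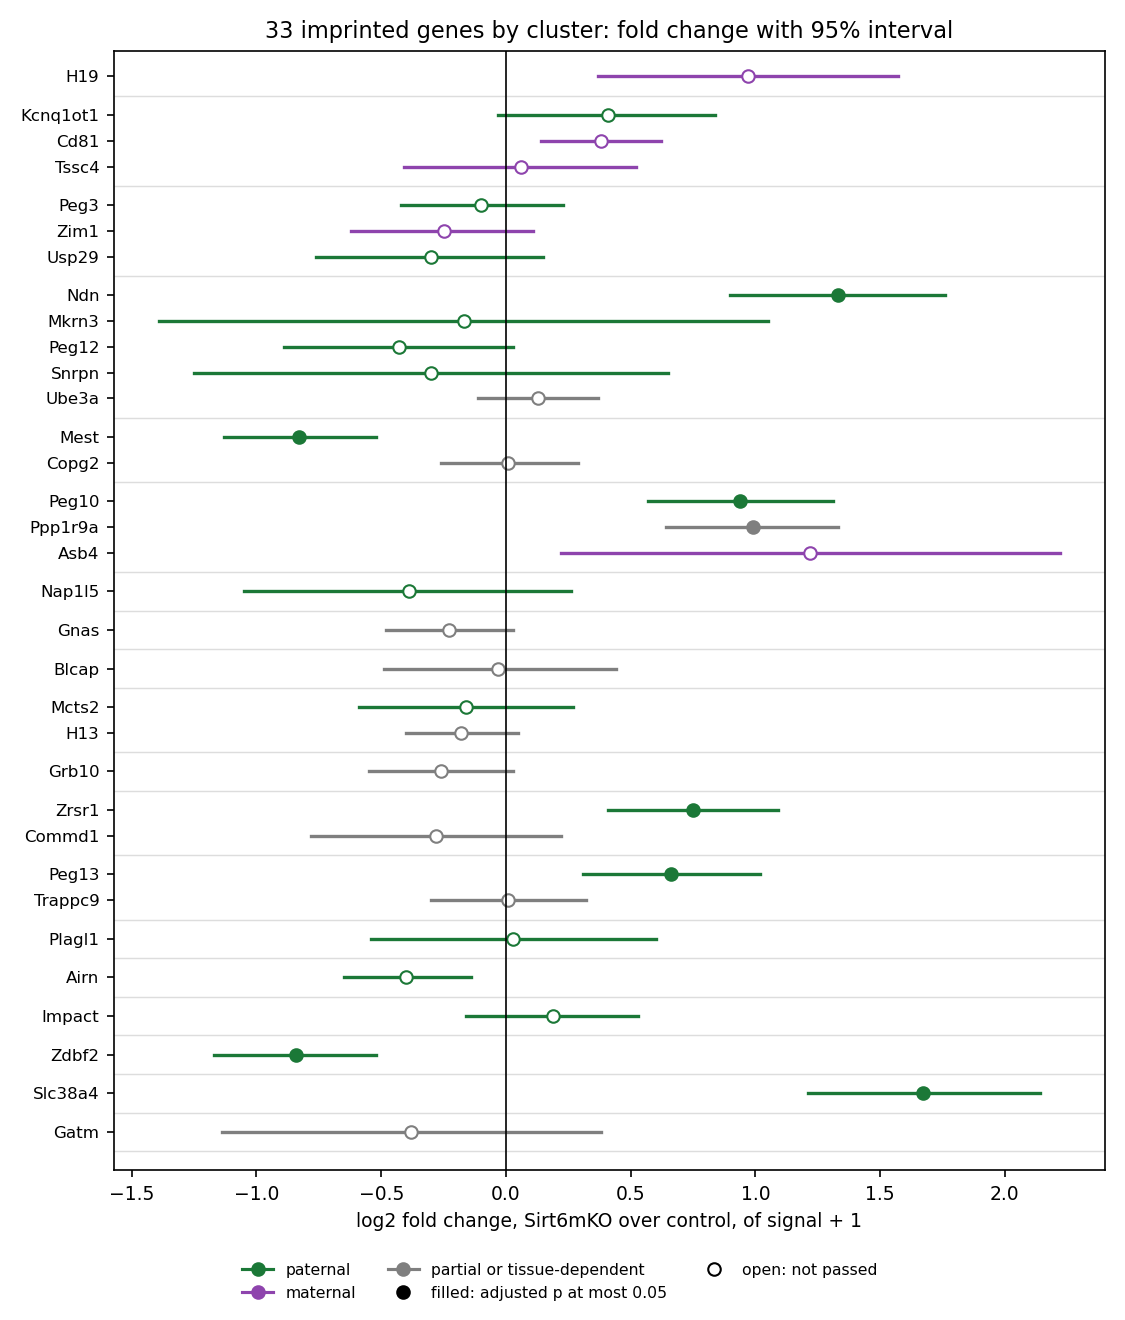
Log2 fold change of signal + 1 in Sirt6mKO over control (horizontal axis) for the 33 tested genes, in blocks by cluster. Points are limma-trend estimates and lines their 95% intervals, colours give the parental copy that is active elsewhere, and the 8 filled points are the genes that passed, from 1.67 for Slc38a4 to -0.84 for Zdbf2.

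Among the 8 genes, Slc38a4 had the largest log2 fold change in the fit of all libraries. Slc38a4 (ENSMUSG00000022464, chromosome 15 of GRCm38, 96994820 to 97055956, minus strand) is a paternally expressed gene for a sodium-coupled amino acid transporter. Its signal was 252, 254 and 347 in replicates 1, 2 and 3 of Sirt6mKO, against 92, 119 and 61 in those of the controls. All Sirt6mKO values lay more than 2-fold above the highest control value. This was a mean of 284.33 ± 54.28 against 90.67 ± 29.02 (SD, n = 3 per group), and the log2 fold change was 1.67 (SE 0.22, limma-trend adjusted p = 0.0011). It stayed between 1.42 and 1.89 over all 17 alternative settings and passed in each. No exon of another gene overlaps it in the annotation. Of its 4 tested neighbours within 500 kb, none was higher and 1, Slc38a1, was lower.

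Ndn (ENSMUSG00000033585, chromosome 7, 62346569 to 62350262, plus strand) encodes necdin, a growth-suppressing member of the MAGE family, and was the gene of the Snrpn cluster that passed. Its signal was 119, 108 and 129 in Sirt6mKO against 41, 63 and 39 in control MuSCs, so that the lowest Sirt6mKO value was well above the highest control value. The log2 fold change was 1.33 (SE 0.20, limma-trend adjusted p = 0.0026), in a range of 1.20 to 1.54 over the alternatives, and it passed in all 17. Its tested paternally expressed neighbours did not pass. Peg12, an intronless gene of the Frat family that binds the kinase GSK3, had 44, 64 and 70 in Sirt6mKO against 69, 97 and 73 in control MuSCs, a log2 fold change of -0.43 (limma-trend adjusted p = 0.31). Within a library, the ratio of Ndn to Peg12 was 2.02 in Sirt6mKO and 0.60 in the controls (geometric means, exact permutation p = 0.1). The spliceosomal gene Snrpn, at 4 to 7, and the ubiquitin ligase gene Mkrn3, at 2 to 10, were close to the floor of detection. Ube3a, a ubiquitin ligase gene that is maternally expressed in neurons, had 924, 851 and 955 in Sirt6mKO against 817, 761 and 925 in control MuSCs. Other genes share 27.3% of its exon length on the opposite strand, as they do 22.0% of that of Gnas and 14.3% of that of Usp29, and 27.3% of that of Snrpn on the same strand, so the values of these genes are less certain.

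In the Peg10 cluster of proximal chromosome 6, the Sirt6mKO libraries lay above all control libraries in each of the 3 listed genes. Peg10 (ENSMUSG00000092035, 4747306 to 4760517, plus strand), a paternally expressed gene derived from a retrotransposon and needed for the placenta, had 134, 127 and 175 in Sirt6mKO against 70, 87 and 68 in control MuSCs. The log2 fold change was 0.94 (SE 0.17, limma-trend adjusted p = 0.0076). Ppp1r9a (ENSMUSG00000032827, 4902917 to 5165661, plus strand) encodes neurabin, a scaffold that ties protein phosphatase 1 to actin, and had 381, 410 and 456 against 275, 179 and 185. Its log2 fold change was 0.99 (SE 0.16, limma-trend adjusted p = 0.0045). Both genes passed under all 17 alternatives. These do not include the minimum fold change of 2, under which neither gene was counted.

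Asb4, a maternally expressed gene for an ankyrin repeat protein, had 7, 10 and 12 in Sirt6mKO against 4, 2 and 5 in control MuSCs, which is 3 reads in each control library. Its fitted log2 fold change of 1.22 (limma-trend adjusted p = 0.18) depended on the pseudocount, with 1.43 at 0.1 and 0.76 at 5. The ratio of Peg10 to Ppp1r9a was 0.35 in Sirt6mKO and 0.36 in the controls, which overlapped (exact permutation p = 0.9).

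Other genes of this stretch were higher too, a set that was chosen after the values were seen. From 500 kb before Peg10 to 500 kb after Asb4, 12 genes were tested, and 11 had a log2 fold change above 0. Of the 12, 6 were higher, against 2.64% of all tested genes. Besides Peg10 and Ppp1r9a these were Col1a2, a chain of type I collagen, Gm43921, which lies within Col1a2 on the same strand, Pdk4, a kinase that inhibits pyruvate dehydrogenase, and Dync1i1, a dynein chain with at most 3 reads in each control library. Col1a2 had 782, 1299 and 1162 in Sirt6mKO against 173, 63 and 65 in control MuSCs. Sgce, the paternally expressed sarcoglycan gene that starts beside Peg10, had 191, 200 and 215 against 183, 133 and 136, with a log2 fold change of 0.43 (limma-trend adjusted p = 0.13), and Casd1 had 0.41 (limma-trend adjusted p = 0.22). Pon2, at 81 to 101 in Sirt6mKO and 83 to 104 in the controls, was the gene below 0.

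**Figure D2:**
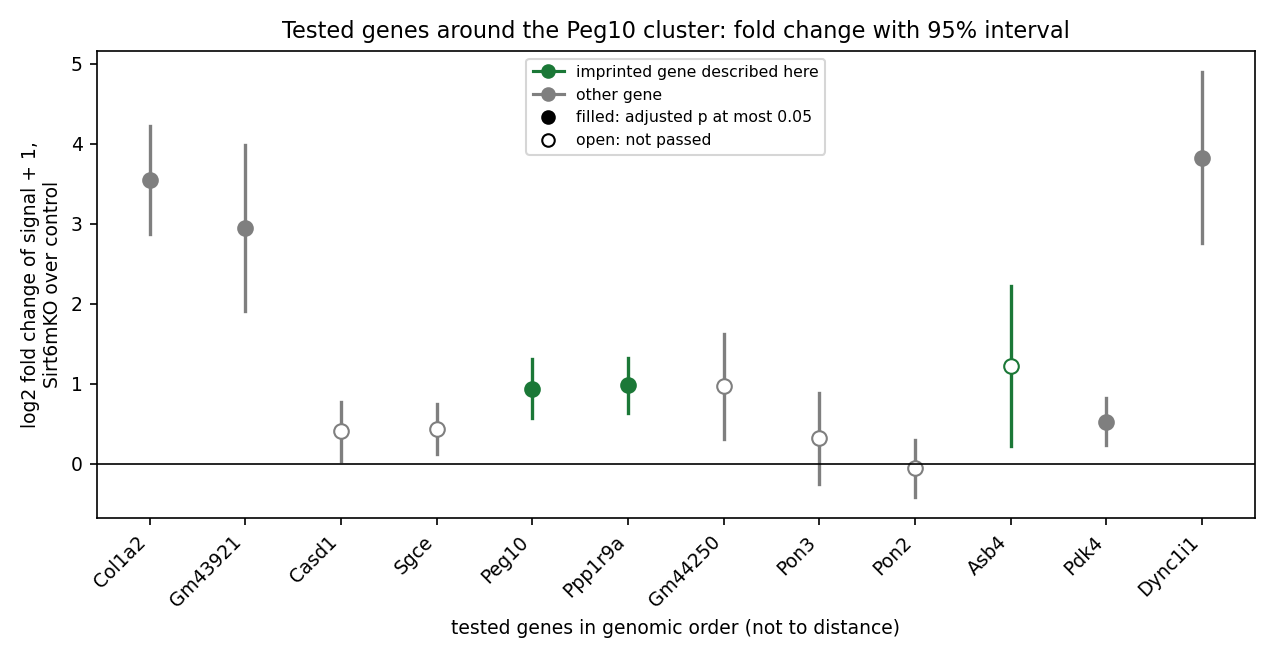
Log2 fold change of signal + 1 in Sirt6mKO over control (vertical axis) for the 12 tested genes around the Peg10 cluster in genomic order, with 95% intervals from limma-trend. Filled points passed the test, green marks the listed imprinted genes, and 11 of the 12 points lie above 0; those of Dync1i1 and Asb4 depend on the pseudocount, since their control libraries hold at most 3 reads each.

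The remaining higher genes lie inside a larger host gene, and neither host passed the test. Zrsr1 (ENSMUSG00000044068, chromosome 11, 22972005 to 22976496, plus strand), a retrogene for a splicing factor related to U2AF1, sits within Commd1 and shares 412 of its 4492 exon nucleotides with it, on opposite strands. Its signal was 130, 127 and 145 in Sirt6mKO against 87, 86 and 66 in control MuSCs, 2 ranges that did not overlap. The log2 fold change was 0.75 (SE 0.16, limma-trend adjusted p = 0.017). The call was lost when any 1 Sirt6mKO library was left out, with log2 fold changes of 0.77, 0.79 and 0.69 and limma-trend adjusted p of 0.086, 0.068 and 0.074 without replicates 1, 2 and 3. Commd1 had 30, 23 and 30 against 33, 36 and 32 (log2 fold change -0.28, limma-trend adjusted p = 0.58). The ratio of Zrsr1 to Commd1 within a library was 4.73 in Sirt6mKO and 2.31 in the controls, with no overlap (exact permutation p = 0.1).

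Peg13 (ENSMUSG00000106847, chromosome 15, 72805600 to 72810324, minus strand) is a paternally expressed noncoding RNA in an intron of Trappc9, a gene for a vesicle tethering protein. Its signal was 222, 292 and 200 in Sirt6mKO against 145, 174 and 129 in control MuSCs, and its log2 fold change was 0.66 (SE 0.16, limma-trend adjusted p = 0.039). This call was lost without Sirt6mKO replicate 1 (limma-trend adjusted p = 0.14) or replicate 2 (0.19), without control replicate 1 (0.086) or replicate 3 (0.11), and without a filter on low values (0.073). Trappc9 had 231, 252 and 217 against 257, 256 and 188, a log2 fold change of 0.01. The signal of Peg13 was at about the level of its host in Sirt6mKO, with a ratio of 1.01, and lower than it in the controls, with 0.64 (exact permutation p = 0.1). Over the 10 ratios of neighbours that were compared, 5 had no overlap, and their exact permutation p adjusted over the 10 was 0.2.

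Neither of the other retrogenes in introns passed. Mcts2, a retrogene for a translation factor in an intron of H13, had 44, 47 and 39 in Sirt6mKO against 53, 41 and 52 in control MuSCs, and its ratio to H13 was 0.08 in both groups. Nap1l5, a retrogene of the nucleosome assembly family in an intron of Herc3, had 63, 74 and 28 against 58, 79 and 66. Sirt6mKO replicate 3 was the lowest of all 6 libraries in Nap1l5. Relatives of these retrogenes elsewhere in the genome, whose similar sequence makes the origin of some reads uncertain, did not pass either, with Zrsr2 at a log2 fold change of -0.14, Mcts1 at 0.06, Nap1l1 at -0.23 and Nap1l4 at -0.16. Of the 6 tested genes of that list none was higher or lower by limma-trend, and 1, the host Herc3, had an unadjusted p under 0.05.

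**Figure D3:**
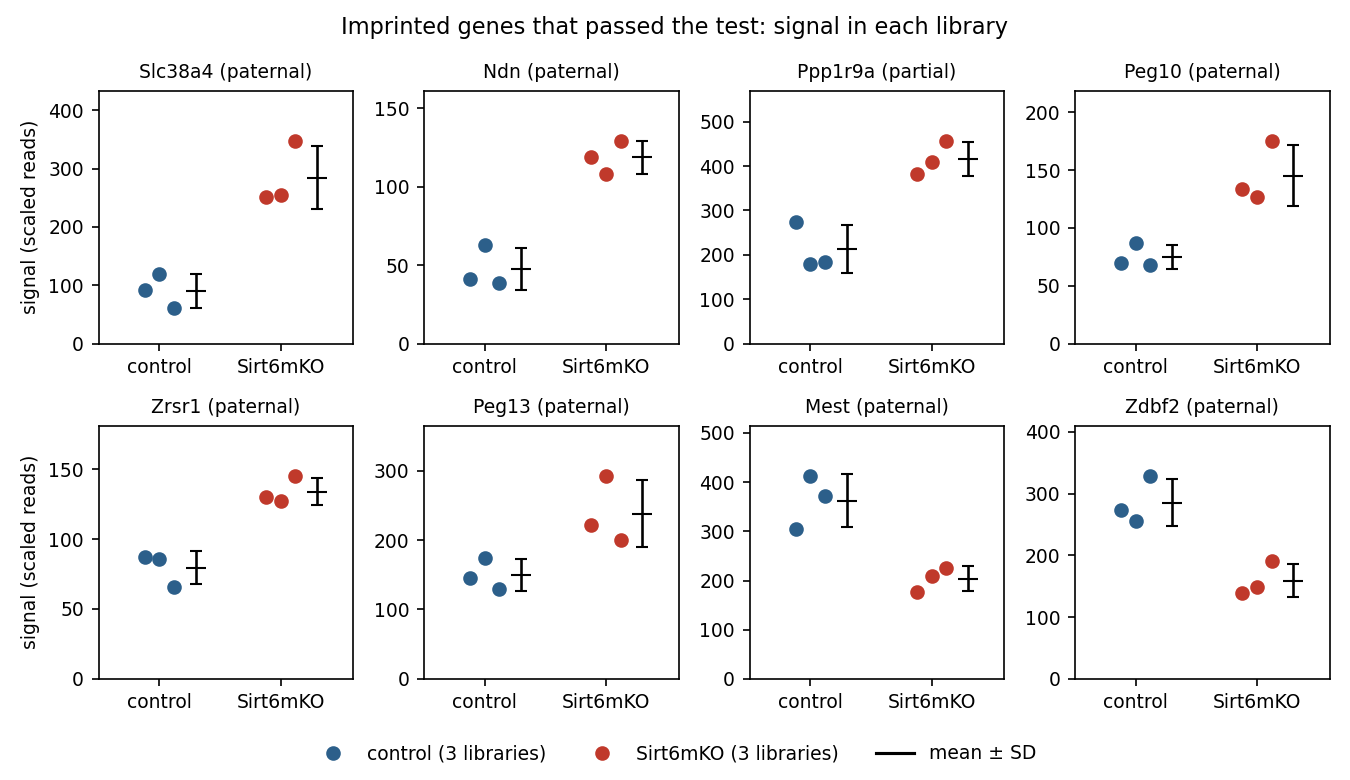
Signal (scaled reads, linear axes from 0) of the 8 imprinted genes that passed, in each of 3 control and 3 Sirt6mKO libraries, with the mean and SD beside the points. The 6 higher genes and then Mest and Zdbf2 are shown, and in none of the 8 panels do the groups overlap.

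Mest and Zdbf2, both paternally expressed, were lower. Mest (ENSMUSG00000051855, chromosome 6, 30723547 to 30748465, plus strand), which encodes a hydrolase-like membrane protein linked to growth and fat storage, had 176, 209 and 226 in Sirt6mKO against 305, 412 and 371 in control MuSCs. The log2 fold change was -0.83 (SE 0.14, limma-trend adjusted p = 0.0060), and it was -0.73 without Sirt6mKO replicate 1 (limma-trend adjusted p = 0.052). Copg2, a coatomer gene that converges on Mest from the other strand, did not pass, with 189, 191 and 203 in Sirt6mKO against 181, 217 and 181 in control MuSCs (log2 fold change 0.01, 95% interval -0.26 to 0.29). The genes share 912 nucleotides of exon on opposite strands, and reads there were assigned to neither or to 1 of them depending on a strand setting that the sources used here do not give. The ratio of Mest to Copg2 within a library was 1.04 in Sirt6mKO and 1.87 in the controls (geometric means, exact permutation p = 0.1).

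Zdbf2 (ENSMUSG00000027520, chromosome 1, 63273265 to 63314576, plus strand) encodes a zinc finger protein. Its signal was 139, 148 and 190 in Sirt6mKO against 273, 255 and 328 in control MuSCs, so that the groups did not overlap. The log2 fold change of -0.84 (SE 0.15, limma-trend adjusted p = 0.0069) became -0.76 without Sirt6mKO replicate 1 and -0.80 without replicate 2, with limma-trend adjusted p of 0.060 and 0.0504.

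**Figure D4:**
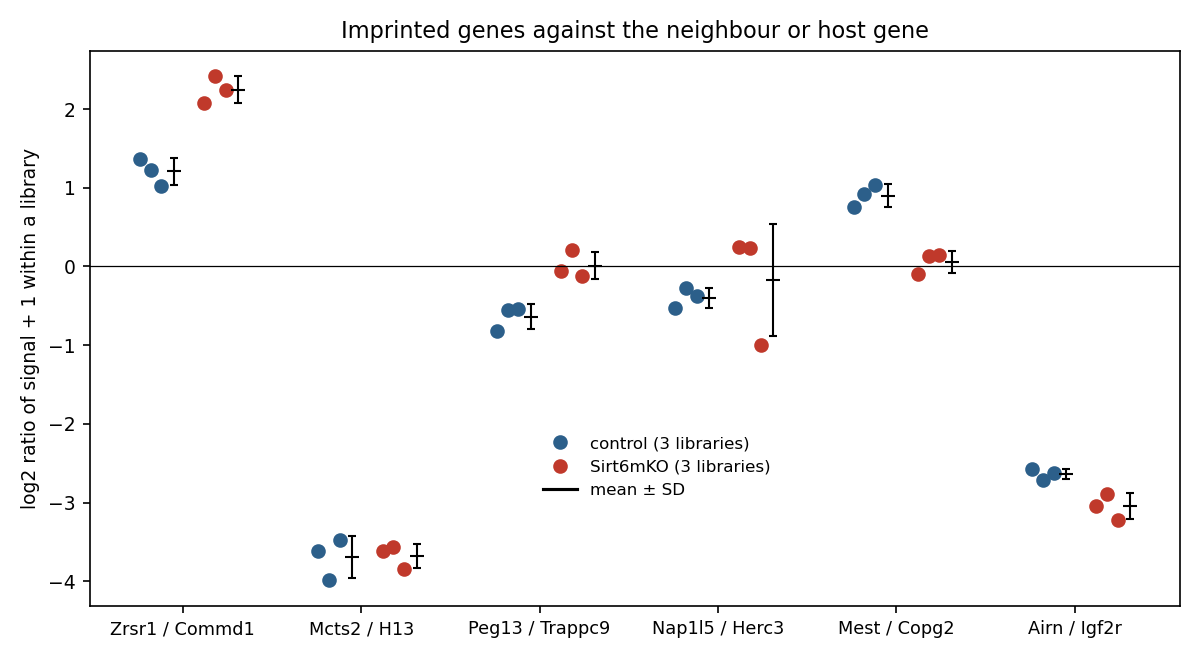
Log2 ratio of signal + 1 of an imprinted gene to its host, neighbour or antisense partner within each library (vertical axis), for 6 pairs with 3 control and 3 Sirt6mKO libraries and the mean and SD beside the points. Zrsr1 / Commd1 and Peg13 / Trappc9 are higher and Mest / Copg2 and Airn / Igf2r lower in every Sirt6mKO library, while Mcts2 / H13 and Nap1l5 / Herc3 overlap.

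To show the sequence at starts of changed genes, the 250 bases before a RefSeq start (GRCm38.p6) follow for 4 of them, with each CG dinucleotide, the site of DNA methylation, in capitals. For each gene the window nearest to its annotated start that holds no annotated exon is shown, and this start lies 14503 bases inside the gene for Mest and 394 bases inside it for Ppp1r9a. The windows are chr15:97055957-97056206 on the minus strand for Slc38a4, chr11:22971755-22972004 on the plus strand for Zrsr1, chr6:4903061-4903310 on the plus strand for Ppp1r9a and chr6:30737800-30738049 on the plus strand for Mest.
Slc38a4: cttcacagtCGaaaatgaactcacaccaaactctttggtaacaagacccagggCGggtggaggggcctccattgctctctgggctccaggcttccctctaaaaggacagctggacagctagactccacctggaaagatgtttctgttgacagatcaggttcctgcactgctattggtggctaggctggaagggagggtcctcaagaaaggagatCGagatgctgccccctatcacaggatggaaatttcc
Zrsr1: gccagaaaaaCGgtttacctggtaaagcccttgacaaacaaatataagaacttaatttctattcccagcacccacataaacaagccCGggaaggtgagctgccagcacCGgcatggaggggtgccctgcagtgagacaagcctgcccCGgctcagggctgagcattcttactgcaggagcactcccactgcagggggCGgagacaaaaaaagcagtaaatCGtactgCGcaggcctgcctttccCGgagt
Ppp1r9a: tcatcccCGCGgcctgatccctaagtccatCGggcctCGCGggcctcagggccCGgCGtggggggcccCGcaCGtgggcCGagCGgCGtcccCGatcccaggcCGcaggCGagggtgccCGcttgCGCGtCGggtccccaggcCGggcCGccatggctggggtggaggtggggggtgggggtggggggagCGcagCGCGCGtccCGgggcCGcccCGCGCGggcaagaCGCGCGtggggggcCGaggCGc
Mest: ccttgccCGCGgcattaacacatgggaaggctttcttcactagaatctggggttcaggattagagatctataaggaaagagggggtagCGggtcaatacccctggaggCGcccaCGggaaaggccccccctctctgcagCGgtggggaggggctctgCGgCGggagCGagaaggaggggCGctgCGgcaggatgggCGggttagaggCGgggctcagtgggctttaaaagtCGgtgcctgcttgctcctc
The Slc38a4 window holds 3 CG, the Zrsr1 window 8, the Mest window 14 and the Ppp1r9a window 35, whereas the window of the other Ppp1r9a start holds 8. These counts stand beside a median of 6 over all 32851 promoter windows of RefSeq and of 12 over the 49 windows of 34 listed genes. The hexamer TGCCGC, which ZFP57 binds when methylated, was searched on both strands. It is in 8.68% of all windows and in 16.3% of the windows of listed genes. Among the windows of listed genes are 2 of Mest that nearly coincide. The Mest window shown holds the hexamer at 2 places. Neither of the 2 windows of Zdbf2, the other lower gene, is shown, because both hold an annotated exon. The window at chr1:63200108-63200357, which overlaps an exon of Platr12, has the hexamer at 3 places. It lies far before the annotated start of Zdbf2 at 63273265. The window of Zdbf2 at that start and those of Slc38a4, Ndn, Zrsr1 and Ppp1r9a hold none, and no window was available for Peg10 and Peg13. The hexamer is also in a window of Copg2, Mcts2, Nap1l5, Zim1 and Plagl1, which did not pass the test. A match of letters is a description only.

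Mest also carries the hairpin of miR-335 in an intron, and H19 that of miR-675 in an exon. Small RNAs were not measured here, and the mature sequences are given because the values of Mest and H19 are those of their host transcripts, with the seed, bases 2 to 8, in capitals.
mmu-miR-335-5p: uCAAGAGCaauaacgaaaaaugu
mmu-miR-335-3p: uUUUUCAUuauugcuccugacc
mmu-miR-675-3p: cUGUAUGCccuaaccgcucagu
mmu-miR-675-5p: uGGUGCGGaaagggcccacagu
The 4 seeds are different.

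H19, the maternally expressed long RNA next to Igf2, had a signal of 721, 515 and 364 in Sirt6mKO against 301, 365 and 163 in control MuSCs. Its groups overlapped by 1 unit of signal, and the log2 fold change of 0.97 (SE 0.27, limma-trend adjusted p = 0.070) did not pass. Without Sirt6mKO replicate 3, the lowest of its group, it was 1.22 and passed (limma-trend adjusted p = 0.040). It was 0.63 without control replicate 3 and 0.72 without Sirt6mKO replicate 1, with limma-trend adjusted p of 0.17 and 0.31. Igf2, its partner gene for a growth factor, had 23, 18 and 8 against 10, 5 and 7 (log2 fold change 0.99, limma-trend adjusted p = 0.25).

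In the Kcnq1ot1 cluster no gene passed. The paternal long RNA Kcnq1ot1, which silences the cluster in cis, had 1372, 1311 and 1519 in Sirt6mKO against 1034, 739 and 1534 in control MuSCs. Its log2 fold change of 0.41 (limma-trend adjusted p = 0.31) rested on single control libraries, with 0.68 without control replicate 3 (limma-trend adjusted p = 0.030) and 0.15 without control replicate 2 (limma-trend adjusted p = 0.70). Cd81, a tetraspanin gene, had 588, 529 and 632 against 467, 455 and 418, without overlap but with a limma-trend adjusted p of 0.078 at a log2 fold change of 0.38. Tssc4 had 31, 36 and 36 against 33, 30 and 36. Phlda2, which limits placental growth, was at 0 to 2 in all libraries and not tested.

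The most abundant imprinted genes did not pass. Peg3 had 7497, 9703 and 6849 in Sirt6mKO against 7718, 8766 and 9024 in control MuSCs, a log2 fold change of -0.10 with a 95% interval of -0.42 to 0.23. Its maternally expressed neighbour Zim1, a zinc finger gene, had 930, 1202 and 1461 against 1154, 1471 and 1633, and Usp29, a ubiquitin protease gene that shares its promoter region, had 79, 92 and 66 against 70, 115 and 113. Gnas had 7054, 6851 and 6529 against 8144, 7926 and 7807, so that every Sirt6mKO library was below every control library. The difference was small, with a log2 fold change of -0.23 (95% interval -0.48 to 0.03, limma-trend adjusted p = 0.35).

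Airn, the paternal antisense RNA that silences Igf2r, had 292, 370 and 309 in Sirt6mKO against 437, 416 and 421 in control MuSCs. The controls lay close together, above all Sirt6mKO values, and the log2 fold change was -0.40 (SE 0.12, limma-trend adjusted p = 0.084). Igf2r, the receptor that clears IGF2, had 2411, 2750 and 2893 against 2616, 2728 and 2599, with a log2 fold change of 0.02, so that the ratio of Airn to Igf2r was 0.12 in Sirt6mKO and 0.16 in the controls (exact permutation p = 0.1). H13, a signal peptide peptidase gene, had 547, 570 and 574 against 659, 666 and 592, also without overlap (log2 fold change -0.18, limma-trend adjusted p = 0.40).

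Grb10, an adaptor that restrains insulin signalling, had 1341, 1439 and 1378 in Sirt6mKO against 1333, 1929 and 1775 in control MuSCs. Plagl1, a zinc finger regulator of other imprinted genes, had 266, 354 and 259 against 455, 287 and 174, and its control values spread more widely than the difference of the means. Impact, an inhibitor of the kinase GCN2, had 209, 225 and 235 against 207, 238 and 152. Blcap, a gene around Nnat, had 81, 75 and 46 against 65, 69 and 66. None of these passed. Commd1 was lower without overlap, and Gatm, which makes a creatine precursor, ranged from 11 to 33. Nnat, a membrane protein gene of neurons, had 1, 3 and 1 against 4, 4 and 0 and was not tested.

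A further list held other known imprinted genes. Of its 35 symbols, 28 had a row, 24 were tested and 1 was lower, while none was higher by limma-trend. Among all tested genes 1.88% were lower and 2.64% higher. An unadjusted p under 0.05 was found for 9, with 5 values above 0 and 4 below. The gene that passed was Slc22a3, an organic cation transporter gene in the Airn and Igf2r cluster, with 30, 32 and 20 in Sirt6mKO against 105, 82 and 84 in control MuSCs (log2 fold change -1.71, SE 0.22, limma-trend adjusted p = 0.0011). Herc3, the host of Nap1l5, had 53, 63 and 57 against 84, 96 and 86 (log2 fold change -0.61, limma-trend adjusted p = 0.053). Of the most abundant genes of that list, Calcr, the calcitonin receptor of quiescent MuSCs, had a log2 fold change of -0.26, and Pde10a had -0.70 (limma-trend adjusted p of 0.38 and 0.055).

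Among 16 tested factors that set or keep imprints, Zfp445 alone passed, at the edge of the threshold, with 700, 735 and 686 in Sirt6mKO against 564, 495 and 550 in control MuSCs (log2 fold change 0.40, limma-trend adjusted p = 0.0498). Zfp57 was at 2 to 7 and too low to test. The maintenance methyltransferase gene Dnmt1 had a log2 fold change of 0.29, Trim28, the corepressor of both zinc finger proteins, -0.23, Tet1 and Tet2, enzymes of demethylation, -0.39 and -0.11, and Smchd1, a chromatin protein of several clusters, 0.22, and none of these 5 passed in limma-trend. The Sirt6mKO values lay above all control values for Zfp445, Dnmt1 and Smchd1, and below them for Trim28 and Tet1. Over all tested genes the shares without overlap were 11.1% above and 10.1% below, and 2.64% passed as higher and 1.88% as lower. Tet1, Dnmt1 and Zfp445 were the 3 factors with an unadjusted p under 0.05 in limma-trend.

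Some markers of fibroblasts and myofibers and most immediate early genes differed between the groups, where 2.64% of all tested genes were higher and 1.88% lower. The median log2 fold changes of these 3 lists were 1.39, 1.13 and 0.72, against 0.00 for all tested genes. An unadjusted p under 0.05 in limma-trend was found for 7 of 9 fibroblast markers, 10 of 13 myofiber markers and all 10 immediate early genes. All of these were above 0. Of 9 tested fibroblast markers Col1a1, Col1a2, Pdgfra and Clec3b were higher. The summed signal of all 12 listed fibroblast markers, most of it from Col3a1 and Gsn, which did not pass, was 12929 to 14807 in Sirt6mKO and 8873 to 13391 in the controls, which overlapped. Clec3b had 109, 22 and 78 against 1, 0 and 0, while Ly6a, which encodes the Sca1 antigen that the sort removed, was at 0 to 2. Of 13 myofiber markers Acta1, Mylpf, Actn3 and Ttn were higher. The 13 had sums of 3067, 3218 and 1604 in Sirt6mKO replicates 1, 2 and 3 against 1130 to 1236 in the controls. Acta1 had 548, 656 and 143 against 118, 131 and 93, and Ckm had 165, 186 and 27 against 31, 31 and 23. So these 2 rose mainly in Sirt6mKO replicates 1 and 2, while Ttn and Actn3, at 657 and 580 in replicate 3, stayed above all controls there. Of 7 mural cell markers Des was higher, and of 10 immediate early genes Fos, Jun, Junb, Egr1, Egr2 and Ier2 were, and the 10 had sums of 15203 to 17697 against 8978 to 11419. Of 2 immune, 2 endothelial and 4 Schwann cell markers tested by limma-trend none passed, and 1 endothelial marker had an unadjusted p under 0.05, while of 13 quiescence markers Pax7 was lower and Cd34 higher. The part of these cells and of the response to dissociation in the changes of the imprinted genes was not tested, and in such samples fewer cells of a type and less RNA per cell cannot be told apart.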

How the data were processed

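The RNA-seq libraries of 3 Sirt6mKO and 3 control samples of sorted MuSCs were used, with groups from the labels. According to the submitters' processing notes, reads were trimmed with Trimmomatic 0.39, aligned with STAR 2.7.10a to GRCm38 (mm10) and counted with featureCounts 2.0.2, while the methods name a different trimmer, and reads on more than 1 gene were left out. The methods name RiboMinus and an Ion Total RNA-Seq kit, the labels RiboGone and a SMARTer stranded kit. The deposited values, called signal, carry no stated unit. They are not counts of reads, although whole, since the authors divided reads by 1 factor per library and rounded. Factors (0.558 to 1.371) were recovered from how often each low value occurred in a library. As the floor of a library 3 reads were taken, for counting error alone.

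With limma 3.58.1 in R 4.3.3, limma-trend was run on log2(signal + 1) for genes whose mean signal reached 5, with Benjamini-Hochberg adjustment over all 14227. A test for counts was not used because the values are scaled. Ratios of 10 pairs of neighbours, a set chosen after the values were seen, were compared by two-sided exact permutation tests. Overlaps and exon lengths came from GENCODE M21 and sequences from RefSeq. Python 3.11.15 was used for tables and plots.

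The listed genes and the other gene lists were chosen with earlier results of these data known. Every listed gene could be named, with values in each library where the gene passed or had a mean signal of at least 50. Whether the same replicate numbers in both groups mark pairs could not be settled. Deviations of same-numbered libraries correlated at 0.023, 0.066 and 0.188, and those of differently numbered libraries at -0.129 to 0.073. The main fit used no pairing. Alternatives were size factors by median ratios, upper quartile and total signal scaling, other pseudocounts and filters, robust empirical Bayes, limma voom on recovered reads, the replicate number as a block, a minimum fold change and leaving out each library.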

Additional observations from a re-analysis of the deposited data

How the results depend on the processing

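The counts of 6 higher and 2 lower imprinted genes were unchanged under median ratio, upper quartile and total signal scaling, pseudocounts of 0.1 and 5, a mean signal of at least 1 or 50, robust empirical Bayes and limma voom on the recovered reads. Without a filter they were 5 and 2, and with a fold change of at least 2 they were 2 and 0. Leaving out 1 library gave 4 to 6 higher genes and 0 to 2 lower genes, with 0 lower without Sirt6mKO replicate 1 and 1 without Sirt6mKO replicate 2. With the replicate number as a block they were 7 and 2, because H19 then passed (log2 fold change 0.97, limma-trend adjusted p = 0.0036). Over all tested genes this block gave 481 higher and 333 lower, against 376 and 267 in the main fit. Whether the numbers mark pairs could not be settled. The scalings moved the median of all genes by less than 0.1 on the log2 scale. Only genes that did not pass changed sign. Copg2 was at -0.003 under total signal scaling and -0.02 with voom, and from -0.03 to 0.10 with 1 library left out. Trappc9 was at -0.0042 under upper quartile scaling, -0.01 under total signal scaling, -0.03 with voom, and from -0.14 to 0.09 with 1 library left out. Plagl1 was at -0.02 with voom and from -0.32 to 0.37 with 1 library left out. With 1 library left out, Tssc4 ran from -0.01 to 0.13, Peg3 from -0.24 to 0.01, Mkrn3 from -0.65 to 0.02, Nap1l5 from -0.66 to 0.02 and Blcap from -0.18 to 0.22. Mkrn3 had no value without 2 of the libraries, since its mean signal then fell under 5. Depth limits Snrpn, Mkrn3 and Asb4, where single libraries hold 3 reads or fewer.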

Other observations

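The Ensembl identifier of Nespas, the paternal antisense RNA of the Gnas cluster, stands in the table under the name Gnasas1, which was looked at after its values were seen. Its signal was 14, 12 and 9 in Sirt6mKO against 4, 5 and 0 in control MuSCs, without overlap, at a log2 fold change of 2.01 that did not pass (limma-trend adjusted p = 0.11).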
